A study of Mus musculus with 9 samples.

Results

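The genes described here moved in the same direction when either of 2 blood transcription factors was knocked down in FDCPmix cells. They were chosen by their measured values. A probe (a short array oligonucleotide that reads 1 transcript) was kept when its mean in the Gata2 knockdown and its mean in the Pu.1 knockdown both lay at least 0.8 log2 units above, or both at least 0.8 below, the mean of the empty vector controls, and when all 6 knockdown arrays lay on one side of all 3 control arrays. Only probes with a gene symbol and a signal well above background on each of the 9 arrays could be taken. Of 20049 such probes (14506 genes), 21 probes of 20 genes rose and 15 probes of 14 genes fell, 0.105% and 0.0748% of the probes the rule could take. In all, 41174 probes were on the array, 23374 of them with a symbol. Because the rule used both differences from the controls, those differences are given as a description and carry no test.

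FDCPmix cells are multipotent blood progenitors of the mouse, kept as a line that depends on IL-3 to self-renew. The cells were transduced with a lentivirus (Lentilox 3.7 in the methods) that marks cells with GFP and carried shRNA against Gata2 (Gata2 KD), shRNA against Pu.1 (Pu.1 KD) or no insert (EV, the empty vector). On day 5 the GFP+ cells were sorted, and 150 ng of RNA from each sample was hybridized to a 1-color Agilent array, 3 arrays per group. All 9 samples come from 1 cell line. The methods describe transduced samples in triplicate but not whether they were separate cultures, so the tests below measure only the spread between these samples, which may be technical. The text of the study speaks of a gene-specific shRNA for Gata2, and the number of hairpins against Pu.1 is not given in the sources used here. No array carries an shRNA without a target in these cells. What an shRNA does of itself and what loss of either factor does therefore cannot be told apart, and the 2 knockdowns are compared with the same 3 EV arrays, so a deviation in EV enters both differences at once.

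GATA2 is a zinc finger factor that keeps progenitors and the mast cell lineage going, and PU.1, encoded by Spi1, is an ETS factor that drives myeloid and lymphoid differentiation. In progenitors each factor is known to oppose programs that the other promotes, which makes a gene that goes the same way after loss of either one of interest. The members are a mixed group by function: DNA-binding regulators and their inhibitors, secreted proteins, receptors, enzymes and parts of the vesicle transport machinery.

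Between 80.4% and 89.6% of spots were well above background on each array, and no spot was saturated. Both targets were lowered in the groups named for them. Gata2 was 1.63 ± 0.23 (SE) log2 units lower in Gata2 KD than in EV (limma, adjusted p = 0.00398), and Spi1 was 1.74 ± 0.15 lower in Pu.1 KD (adjusted p = 0.0018). The factors were not lowered together: Gata2 differed by -0.16 ± 0.23 in Pu.1 KD (adjusted p = 0.962), and Spi1 was 1.37 ± 0.15 higher in Gata2 KD (adjusted p = 0.00129). The progenitor genes Kit, Cd34, Myb, Runx1, Tal1 and Lmo2 were well above background on all 9 arrays. The 9 arrays lay on 3 slides, each holding 1 array of every group, so slide and group were balanced. EV replicate 3 stood apart at single probes: it lay at least 1 log2 unit below all other arrays at 24 of the 20049 probes and above them at 8. Pu.1 KD replicate 2 lay that far below at 29 probes, of which 17 carried the scanner's outlier flag. For the other 7 arrays such low probes numbered 0 to 2.

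**Figure D1:**
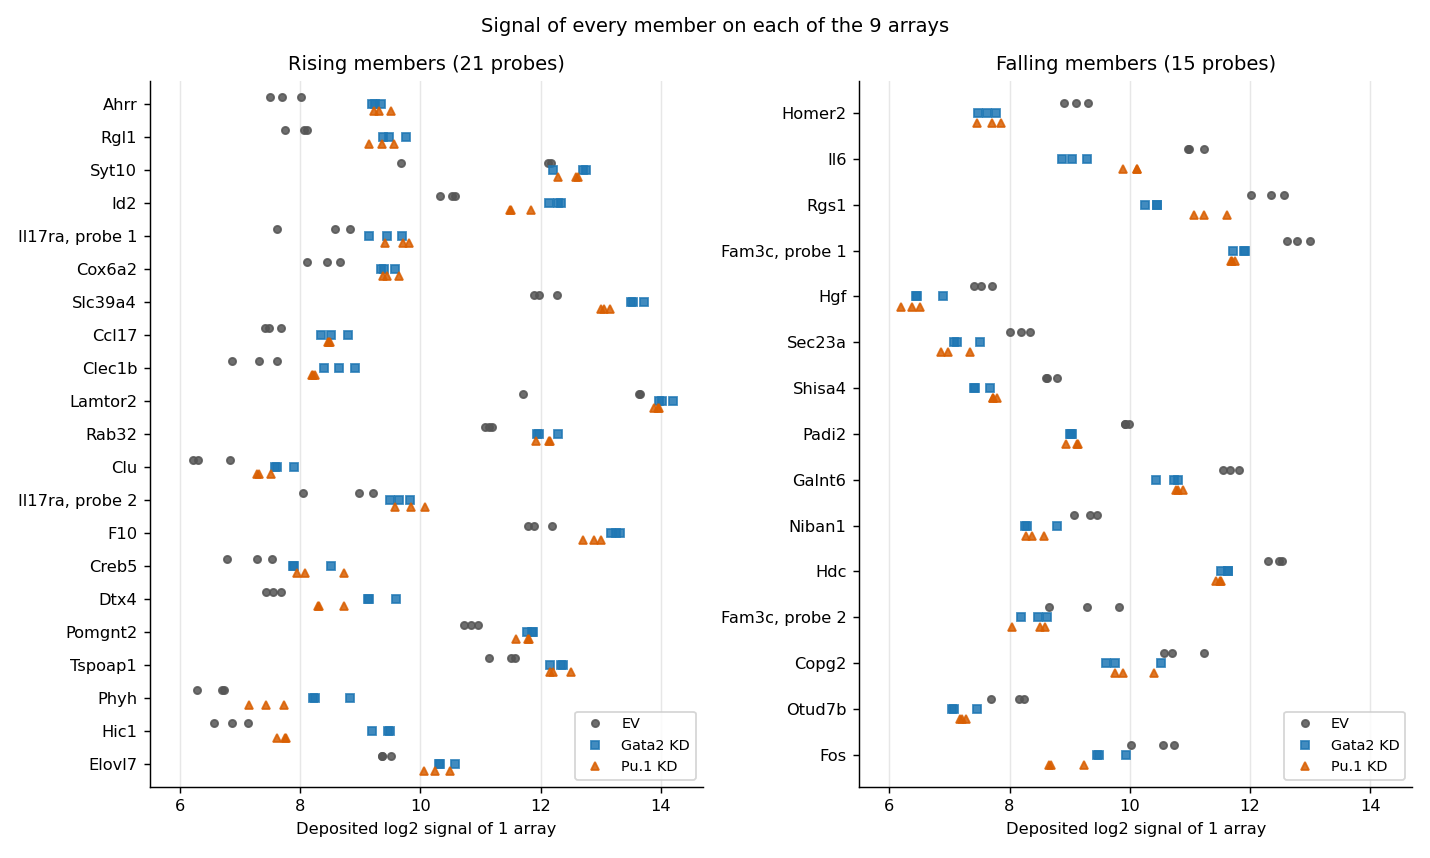
Each row is 1 member probe, in order of the smaller of its 2 differences from EV, and each point is the deposited log2 signal of 1 array (circles EV, squares Gata2 KD, triangles Pu.1 KD; 3 arrays per group). By the rule no knockdown point crosses an EV point; the gap between them is widest for Ahrr (1.17) and narrowest for Syt10 (0.03), where 1 EV point lies far to the left of the other 2.

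Levels in the next paragraphs are the deposited log2 signals, on which 1 unit is a 2-fold change, and each list of 3 values runs from replicate 1 to replicate 3. Differences are means of 3 arrays minus the mean of the 3 EV arrays on the same scale. Among all probes the rule could take, 422 (2.1%) had every knockdown array above every EV array whatever the size of the difference, and 753 (3.76%) had every knockdown array below. Over those 20049 probes the median difference was -0.05 in Gata2 KD and -0.02 in Pu.1 KD. Rising members differed by 0.88 to 2.53 in Gata2 KD (median 1.23) and by 0.85 to 1.61 in Pu.1 KD (median 0.95). Falling members differed by -2.00 to -0.81 in Gata2 KD (median -0.94) and by -1.57 to -0.81 in Pu.1 KD (median -0.95).

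The rising regulators of transcription were led by Ahrr, the repressor that competes with the aryl hydrocarbon receptor for its partner ARNT and is itself a target of that receptor. Ahrr read 7.51, 7.70 and 8.02 in EV, 9.35, 9.19 and 9.24 in Gata2 KD and 9.23, 9.51 and 9.31 in Pu.1 KD. The differences were 1.52 and 1.61, the largest pair among the rising members when ranked by the smaller one, and the 6 knockdown arrays lay within 0.32 of each other while the nearest EV array was 1.17 below them. Id2, an HLH protein without a DNA-binding region that holds E proteins off DNA, read 10.58, 10.52 and 10.33 in EV, 12.34, 12.30 and 12.14 in Gata2 KD and 11.51, 11.49 and 11.83 in Pu.1 KD. Its 3 groups were separate, with EV lowest and Gata2 KD highest. The zinc finger repressor Hic1 gave the most unequal pair: 7.13, 6.87 and 6.56 in EV, 9.50, 9.46 and 9.20 in Gata2 KD and 7.62, 7.76 and 7.74 in Pu.1 KD. It was 2.53 higher in Gata2 KD and 0.85 higher in Pu.1 KD. Creb5, a bZIP factor that binds cAMP response elements, differed by 0.90 and 1.05 and was spread more widely, from 6.78 to 7.53 within EV.

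Signaling and trafficking genes formed the next group of rising members. Rgl1, an exchange factor that activates the small GTPase Ral, read 7.75, 8.07 and 8.11 in EV, 9.76, 9.49 and 9.37 in Gata2 KD and 9.15, 9.56 and 9.36 in Pu.1 KD, so the 2 knockdowns overlapped each other and left EV 1.04 below. Dtx4, a Deltex E3 ubiquitin ligase that acts on Notch and innate immune signaling, read 7.43, 7.68 and 7.54 in EV, 9.60, 9.12 and 9.15 in Gata2 KD and 8.31, 8.73 and 8.30 in Pu.1 KD. As with Id2, its groups did not overlap and Pu.1 KD lay between the others. Rab32, a GTPase of lysosome-related organelles, differed by 0.93 and 0.94, and Tspoap1, a RIM-binding adaptor protein, by 0.88 and 0.89, with both knockdowns overlapping in each case. Il17ra, the receptor for IL-17A, was read by 2 member probes, with differences of 1.09 and 1.31 on the first and 0.91 and 1.09 on the second.

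Among surface and secreted products, Slc39a4, the zinc importer ZIP4, rose with clear steps between groups. It read 12.28, 11.97 and 11.89 in EV, 13.51, 13.73 and 13.54 in Gata2 KD and 13.05, 13.00 and 13.15 in Pu.1 KD, with no overlap between any 2 groups. Clec1b, the platelet and megakaryocyte receptor for podoplanin, read 6.86, 7.32 and 7.62 in EV, 8.92, 8.64 and 8.39 in Gata2 KD and 8.26, 8.21 and 8.20 in Pu.1 KD. The Pu.1 KD arrays of Clec1b agreed within 0.05, while the EV arrays spanned 0.76. The chemokine Ccl17, a ligand of CCR4, differed by 1.03 and 0.96. Clusterin (Clu), a secreted chaperone, differed by 1.25 and 0.93, and F10, coagulation factor X, by 1.29 and 0.90.

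Rising enzymes included the peroxisomal phytanoyl-CoA hydroxylase Phyh. It read 6.28, 6.74 and 6.71 in EV, 8.83, 8.21 and 8.24 in Gata2 KD and 7.15, 7.73 and 7.44 in Pu.1 KD, again with Pu.1 KD between EV and Gata2 KD and no overlap. Cox6a2, the isoform of a cytochrome c oxidase subunit found in heart and skeletal muscle, differed by 1.03 and 1.08. Elovl7, an elongase of very long chain fatty acids, differed by 0.99 and 0.85, and Pomgnt2, a glycosyltransferase of O-mannose glycans, by 0.99 and 0.89.

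The 15 falling probes were led by Homer2, a scaffold that links metabotropic receptors to calcium stores. Homer2 read 8.91, 9.30 and 9.10 in EV, 7.48, 7.63 and 7.78 in Gata2 KD and 7.85, 7.71 and 7.47 in Pu.1 KD. Its differences were -1.48 and -1.43, and the 2 knockdowns overlapped fully, 1.06 below the lowest EV array. Rgs1, which speeds GTP hydrolysis by G protein alpha subunits and so limits chemokine receptor signals, read 12.01, 12.34 and 12.56 in EV, 10.46, 10.25 and 10.45 in Gata2 KD and 11.23, 11.07 and 11.62 in Pu.1 KD. All 3 groups were separate, and Gata2 KD was lowest.

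The falling genes that encode secreted factors were Il6, Hgf and Fam3c. The cytokine Il6 read 10.96, 10.99 and 11.23 in EV, 9.29, 9.04 and 8.87 in Gata2 KD and 9.89, 10.11 and 10.12 in Pu.1 KD. Its difference was -2.00 in Gata2 KD and -1.02 in Pu.1 KD, with no overlap between groups. Hgf, the growth factor that acts through the receptor MET, read 7.41, 7.53 and 7.72 in EV, 6.89, 6.47 and 6.45 in Gata2 KD and 6.20, 6.52 and 6.38 in Pu.1 KD. Here the 2 knockdowns overlapped. Fam3c, a secreted protein of the FAM3 family, was read by 2 member probes, the first with differences of -0.95 and -1.08 and the second with -0.83 and -0.88. On the second Fam3c probe the highest knockdown array and the lowest EV array were only 0.03 apart.

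Hdc, the enzyme that makes histamine and a product of mast cells and basophils, read 12.29, 12.53 and 12.48 in EV, 11.63, 11.52 and 11.63 in Gata2 KD and 11.43, 11.50 and 11.51 in Pu.1 KD. The knockdown arrays spanned 0.20 in all and lay 0.66 below EV. Fos, the immediate early partner of JUN in AP-1, read 10.02, 10.55 and 10.74 in EV, 9.93, 9.50 and 9.45 in Gata2 KD and 8.65, 8.69 and 9.24 in Pu.1 KD. For Fos the lower group was Pu.1 KD, and the gap to the nearest EV array was only 0.09. Padi2, which converts arginine in proteins to citrulline, differed by -0.91 and -0.87, and Galnt6, which starts mucin-type O-glycans, by -1.02 and -0.86. The coat proteins of vesicle transport were Sec23a (COPII; -0.95 and -1.12) and Copg2 (COPI; -0.87 and -0.82). Shisa4, a transmembrane protein, differed by -1.16 and -0.92, Niban1 by -0.84 and -0.88, and the deubiquitinase Otud7b by -0.84 and -0.81.

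**Figure D2:**
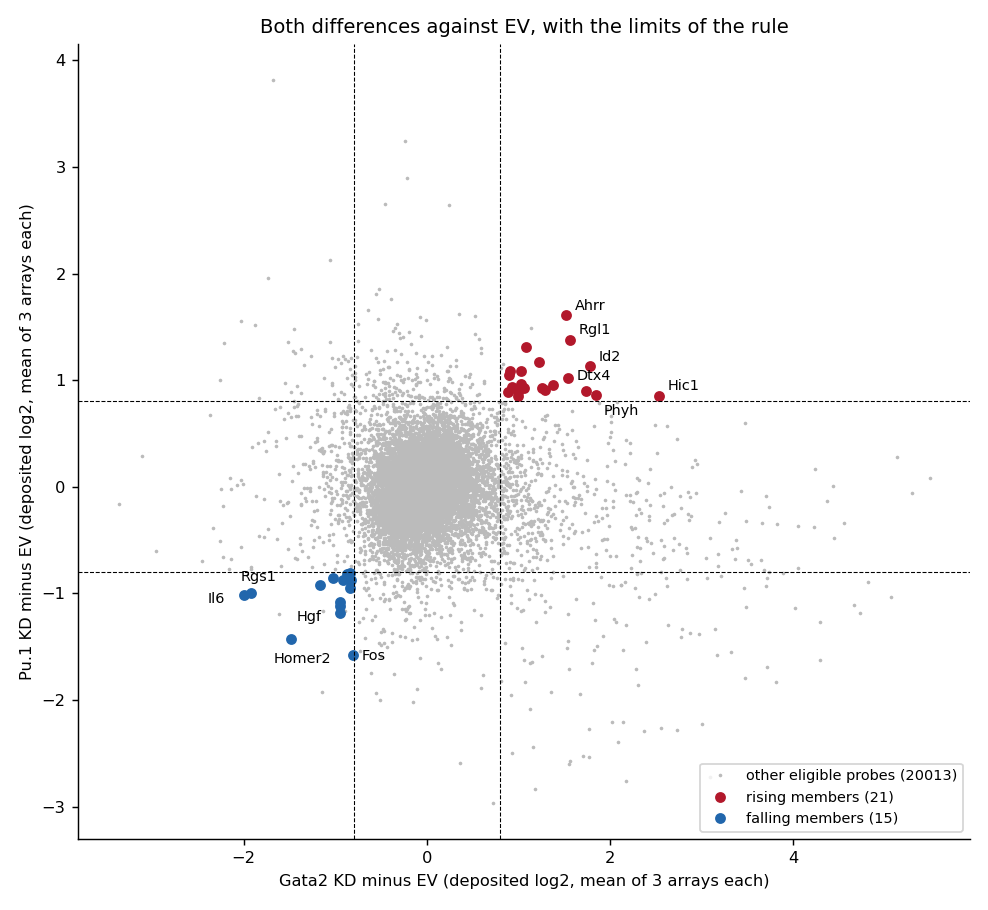
Difference from EV in Gata2 KD (x axis) and in Pu.1 KD (y axis), both in deposited log2 units and both measured against the same 3 EV arrays, for the 20049 probes the rule could take. Red points are the 21 rising and blue points the 15 falling members, gray points are all others, and dashed lines mark the limit of 0.8; the members lie in the outer upper right and lower left corners, while most large changes lie along a single axis or in the opposite corners.

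Few probes met the size limit in both knockdowns: 25 were at least 0.8 higher in both and 19 at least 0.8 lower in both, before overlap of the arrays was considered. In the opposite corners, 112 probes were at least 0.8 higher in Gata2 KD and at least 0.8 lower in Pu.1 KD, and 41 were the reverse. The members just inside the limit were Elovl7 (smaller difference 0.85), Hic1 (0.85) and Phyh (0.86) among the rising genes and Fos (0.81), Otud7b (0.81) and Copg2 (0.82) among the falling. Just outside stood Cd7 (0.79), Tbkbp1 (0.79) and Vwf (0.79) on the rising side and a second Copg2 probe (0.79), Tmtc2 (0.78) and Rnf128 (0.77) on the falling side, so the edge of the group is a matter of hundredths of a log2 unit.

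How the 2 knockdowns compare with each other is a question the rule leaves only partly free. It sets neither the sign nor the size of that difference, although it leaves out genes that changed strongly in one knockdown and weakly in the other. Values here are log2 of the processed (background-subtracted) signal minus the array's 75th percentile, compared with limma over 36585 tested probes. Of the 21 rising probes, 5 were higher in Gata2 KD than in Pu.1 KD at an adjusted p under 0.05, against 4.68% of all tested probes, and 0 were lower, against 4.94%. Of the 15 falling probes, 2 were lower in Gata2 KD and 0 were higher. All 7 were thus cases in which Gata2 KD carried the larger change. The shares over all tested probes are not a matched background, because the members were chosen for large changes. Rises of at least 0.8 were also more frequent in Gata2 KD (656 probes the rule could take) than in Pu.1 KD (248), and falls numbered 333 and 310. A rule that asks for both can therefore lean toward larger rises in Gata2 KD, and no conclusion is drawn from the one-sided counts.

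Hic1 showed the widest separation, 1.87 ± 0.24 (SE) log2 units higher in Gata2 KD than in Pu.1 KD (limma, adjusted p = 0.00143). Phyh was 1.14 ± 0.21 higher (adjusted p = 0.0102) and Dtx4 0.91 ± 0.15 higher (adjusted p = 0.00654). These 3 rising genes passed the threshold under every alternative tried. For Id2 the difference was 0.62 ± 0.16 (adjusted p = 0.0499), at the very edge of the threshold, and for Slc39a4 it was 0.54 ± 0.14 (adjusted p = 0.04). On the falling side Il6 was 1.03 ± 0.20 lower in Gata2 KD (adjusted p = 0.0124, log2 difference -1.03) and Rgs1 0.96 ± 0.22 lower (adjusted p = 0.0307, log2 difference -0.96). With the slide as a block the same 7 probes passed, with adjusted p from 0.00273 for Dtx4 to 0.0387 for Id2. Leaving out Gata2 KD replicate 2, Pu.1 KD replicate 2 or Pu.1 KD replicate 3 left only 3 of the 7.

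The other 29 member probes did not pass, with standard errors between 0.14 and 0.60, which does not show that the knockdowns moved them equally. Ahrr differed by -0.06 ± 0.23 (limma, adjusted p = 1), Homer2 by -0.14 ± 0.18 (adjusted p = 0.947) and Hdc by 0.02 ± 0.14 (adjusted p = 1). Among the falling member probes, that of Fos alone had a sizable estimate toward a larger change in Pu.1 KD, 0.73 ± 0.27 higher in Gata2 KD (adjusted p = 0.169). Clec1b was 0.57 ± 0.22 higher in Gata2 KD (adjusted p = 0.195).

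**Figure D3:**
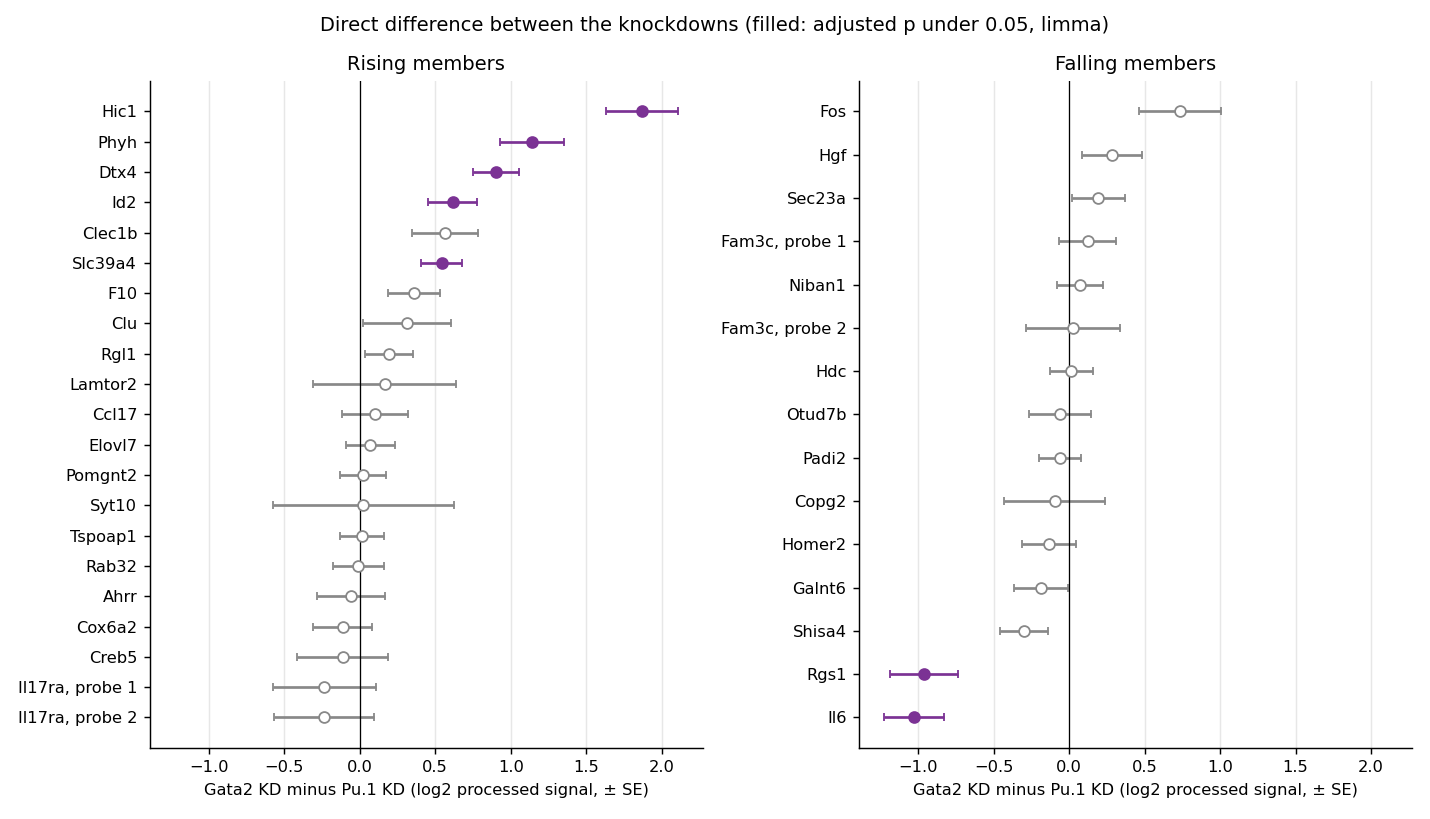
Gata2 KD minus Pu.1 KD for each member probe, in log2 processed signal scaled to the array's 75th percentile, with the standard error of the limma fit (3 arrays per group). Filled points are the 7 probes with an adjusted p under 0.05: 5 rising genes to the right of 0, led by Hic1 at 1.87, and Il6 and Rgs1 to the left.

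On the same processed scale the comparisons with EV, which the rule used in another form, called 16 of the 21 rising probes higher in Gata2 KD (2.83% of all tested probes) and 15 higher in Pu.1 KD (1.23%). Of the 15 falling probes 12 were called lower in Gata2 KD (2.33%) and 11 lower in Pu.1 KD (1.4%). Nothing is read from these counts, since the members were chosen for these differences. With the slide as a block the counts were 17 and 15 of the rising and 12 and 13 of the falling probes. Syt10, Lamtor2, both Il17ra probes, the second Fam3c probe and Copg2 were called in neither comparison, with or without the block. Creb5 was called in neither without the block (limma, adjusted p = 0.079 and 0.0789) and in both with it (0.0094 and 0.0127). In Pu.1 KD the block also brought in Rgs1 (0.0589 without, 0.0469 with) and Otud7b (0.0675 and 0.029) and took out Hic1 (0.0345 and 0.0502). Chosen on the processed signal, the rule would have taken 19 of the 21 rising members (not Syt10 or Tspoap1) and 13 of the 15 falling members (not Copg2 or Fos).

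Some members rested on a single control array. Syt10, a synaptotagmin that senses calcium in vesicle release, read 12.12 and 12.17 in EV replicates 1 and 2 but 9.68 in EV replicate 3, while the 6 knockdown arrays ran from 12.20 to 12.75. Lamtor2, a subunit of the Ragulator complex on lysosomes, likewise read 13.65 and 13.64 and then 11.70, against 13.88 to 14.20 in the knockdowns. EV replicate 3 was thus 2.44 below every other array for Syt10 and 1.94 below for Lamtor2, and it was not flagged by the scanner at either probe. Without it the smaller difference was 0.35 for Syt10, 0.28 for Lamtor2, 0.73 and 0.56 for the Il17ra probes and 0.71 for Hic1, all under the limit. On the falling side Copg2 (0.62), Fos (0.66) and Otud7b (0.75) also dropped below it.

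EV replicates 1 and 2 mattered for other genes. Leaving out EV replicate 1 took Clec1b, Creb5, Phyh and Tspoap1 below the limit, and leaving out EV replicate 2 took 6 falling members below it, Hdc and Galnt6 among them. Leaving out each of the 9 arrays in turn, 10 rising members met the rule every time: Ahrr, Rgl1, Id2, Cox6a2, Slc39a4, Ccl17, Rab32, Clu, F10 and Pomgnt2. Among the falling members 8 did so: Homer2, Il6, Rgs1, the first Fam3c probe, Hgf, Sec23a, Shisa4 and Padi2. Leaving out an array can only ease the condition that the arrays do not overlap. Of the genes in these 2 lists, Clu and Hgf did not meet the rule after normexp background correction with quantile normalization.

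**Figure D4:**
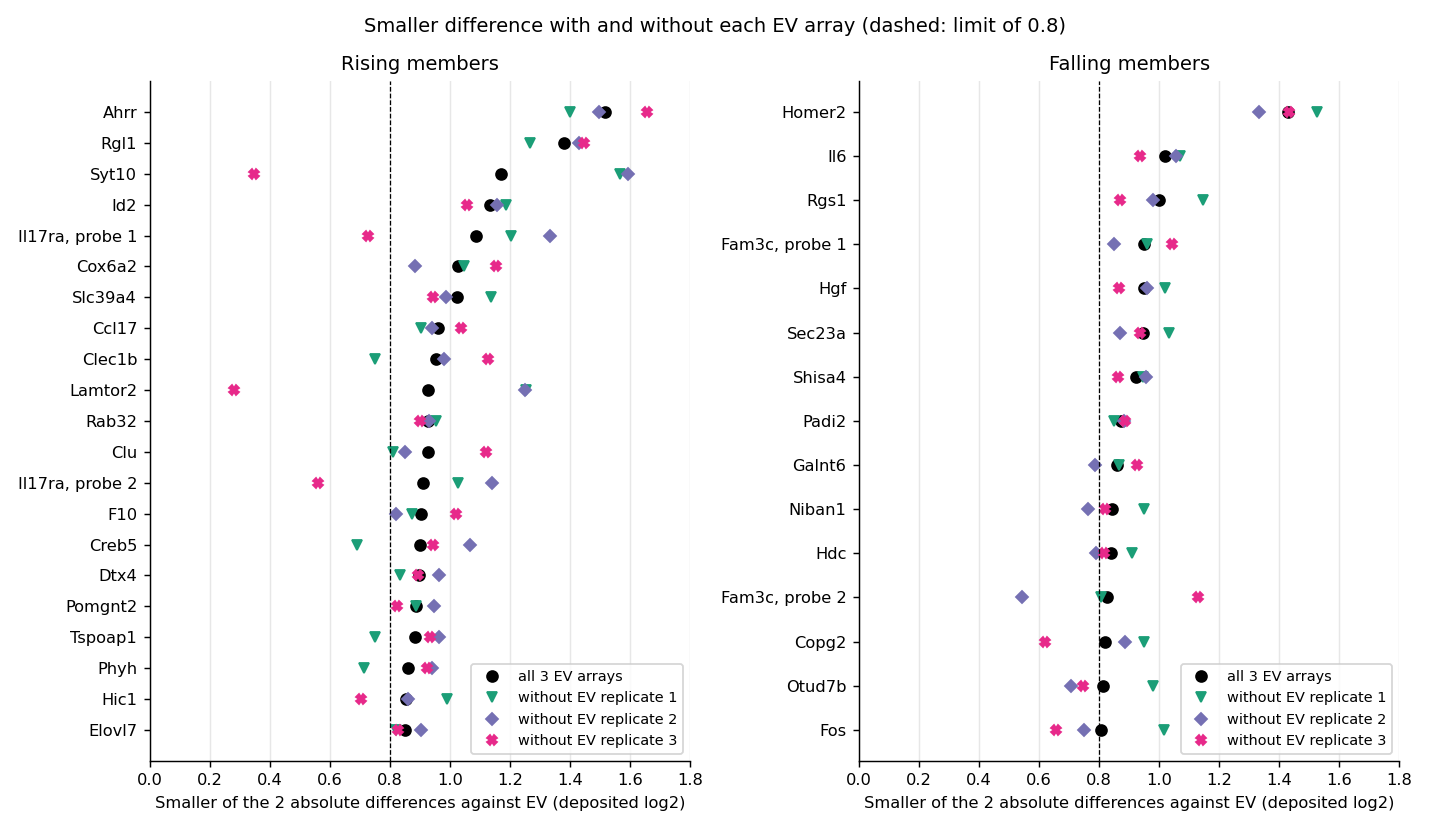
The smaller of a member's 2 absolute differences from EV (deposited log2) with all 3 EV arrays (black circles) and with EV replicate 1, 2 or 3 left out (triangles, diamonds and crosses); the dashed line is the limit of 0.8. Without EV replicate 3, Syt10 drops to 0.35 and Lamtor2 to 0.28, while Ahrr, Rgl1 and Homer2 stay at 1.27 or more whichever EV array is left out.

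The size and overlap conditions of the rule were also applied with 1 slide left out at a time. When probes were chosen by the same rule on the 6 arrays of 2 slides and then read on the third, 22 of 23 rising probes were higher than EV in both knockdowns on slide 1, 24 of 33 on slide 2 and 21 of 21 on slide 3. Over all 20049 probes the share higher in both on the held-out slide was 22.7%, 25.6% and 32.7%, a background that itself reflects the shared EV array. Falling probes were lower in both for 24 of 26, 16 of 18 and 12 of 13, against 34.4%, 33.1% and 37.7% of all probes. Members made up 18, 18 and 15 of the rising probes so chosen and 14, 11 and 9 of the falling. The rule on all 9 arrays had already required their direction on every slide, so these counts are no separate test of the members. The held-out medians of the rising probes lay between 0.82 and 1.02 in Gata2 KD and between 0.70 and 0.88 in Pu.1 KD.

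Other probes of the same genes were not used by the rule, though they were hybridized to the same RNA. There were 15 of them, for 11 genes. Of the 6 for rising genes 4 had both differences above 0, against 23.1% of the 20049 probes the rule could take, and of the 9 for falling genes 7 had both below 0, against 35.9%. Many of these differences were small. The second probe of Homer2, the leading falling gene, read 7.94, 7.59 and 7.38 in EV, 7.05, 7.29 and 7.74 in Gata2 KD and 7.20, 7.14 and 7.61 in Pu.1 KD. Its groups overlapped, and its differences were only -0.28 and -0.32. The second Elovl7 probe differed by 0.31 and 0.29. Dtx4 had 2 others, with differences of 1.59 and 0.71 on one and 0.90 and 0.40 on the other. Direct comparison of the knockdowns on the first of these gave 0.81 higher in Gata2 KD (limma, adjusted p = 0.00602), while on the other the estimate was 0.52 (adjusted p = 0.0664). A second Rgl1 probe differed by 0.94 and 0.66.

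The second Id2 probe read 9.89, 9.91 and 9.96 in EV, 11.72, 11.67 and 11.64 in Gata2 KD, and 11.03, 6.48 and 11.04 in Pu.1 KD. The value of 6.48 came from a spot that the scanner had flagged as an outlier, and the deposited table kept it, which turned the Pu.1 KD difference of this probe to -0.40. With flagged spots treated as missing, Id2 gained a second member probe (22 rising probes in all), and on the processed signal this probe was 1.59 higher in Gata2 KD and 1.06 higher in Pu.1 KD. Its direct difference between the knockdowns was 0.53, which did not pass (limma, adjusted p = 0.088). Hgf had a second probe with differences of -0.31 and -0.55. On the processed signal this Hgf probe was called lower in both knockdowns, by log2 differences of -0.82 (limma, adjusted p = 0.0481) and -1.66 (adjusted p = 0.0049). In the direct comparison it was 0.83 higher in Gata2 KD (adjusted p = 0.0293), so Pu.1 KD carried the larger change. The member probe of Hgf gave 0.28 there and did not pass (adjusted p = 0.621). For Syt10 the other probe was near background (4.95 to 5.96 over the 9 arrays), with differences of -0.05 and -0.21, and for Otud7b 1 of 3 other probes and for Copg2 1 of 2 did not share the direction.

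**Figure D5:**
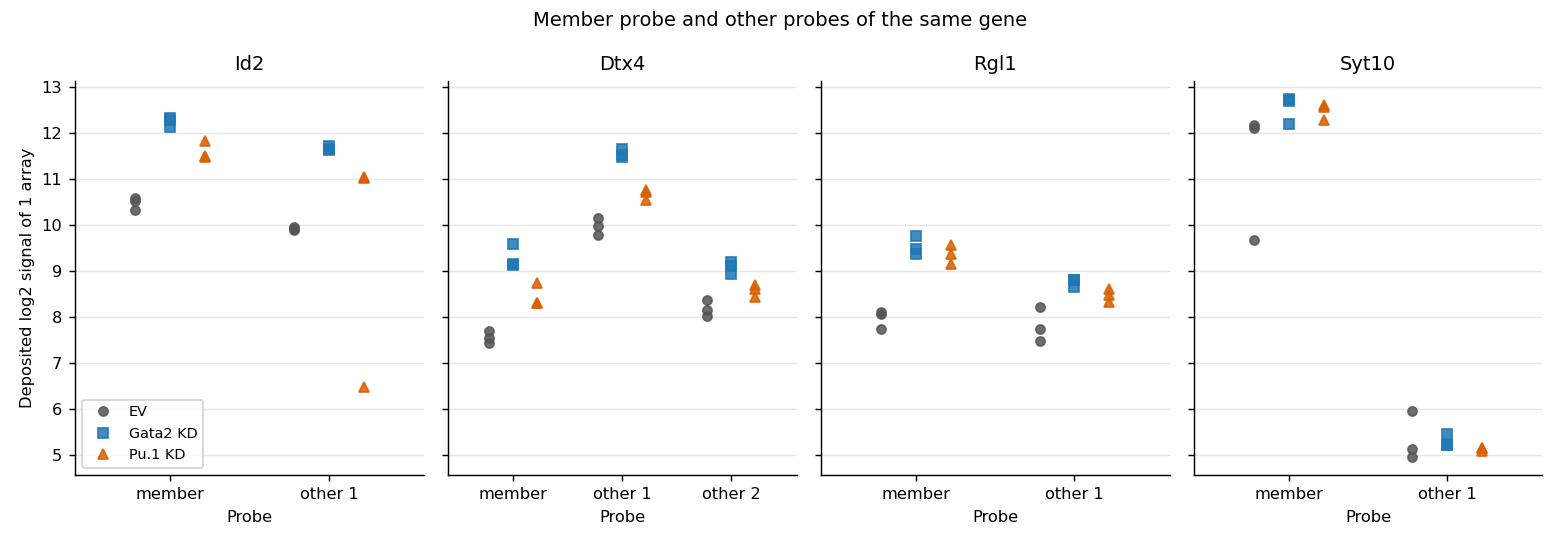
Deposited log2 signal of 1 array per point for the member probe and the other probes of Id2, Dtx4, Rgl1 and Syt10 (circles EV, squares Gata2 KD, triangles Pu.1 KD). In Id2 the single low triangle at 6.48 is the flagged spot; the other Dtx4 and Rgl1 probes keep the order of their groups, and the other Syt10 probe lies between 4.95 and 5.96.

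The sequence just before the transcription start is shown for the leading member of each direction, Ahrr and Homer2. It is also shown for Id2 and Il6, one from each direction that passed the direct comparison, though not under every alternative tried. The sequences are RefSeq promoters of the build GRCm38.p6, given as the 200 bases before the start, 5′ to 3′ on the strand of the gene, and capitals mark a match to one of the motifs named below on either strand. They lie at chr13:74292332-74292531 (minus strand, Ahrr), chr12:25096093-25096292 (minus strand, Id2), chr7:81706926-81707125 (minus strand, the first of 2 Homer2 starts) and chr5:30012914-30013113 (plus strand, Il6).
Ahrr: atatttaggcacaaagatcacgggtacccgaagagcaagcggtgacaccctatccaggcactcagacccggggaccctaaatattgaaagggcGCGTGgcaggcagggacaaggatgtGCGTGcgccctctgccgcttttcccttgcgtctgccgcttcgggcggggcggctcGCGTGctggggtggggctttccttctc
Id2: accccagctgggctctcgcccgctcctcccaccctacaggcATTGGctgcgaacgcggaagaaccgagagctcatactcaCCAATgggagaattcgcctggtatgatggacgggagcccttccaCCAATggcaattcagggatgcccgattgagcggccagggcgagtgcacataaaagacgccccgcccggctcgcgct
Homer2: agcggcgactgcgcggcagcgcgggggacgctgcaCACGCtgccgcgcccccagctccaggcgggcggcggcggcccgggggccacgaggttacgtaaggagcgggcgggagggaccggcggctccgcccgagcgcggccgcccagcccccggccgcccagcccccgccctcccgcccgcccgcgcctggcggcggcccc
Il6: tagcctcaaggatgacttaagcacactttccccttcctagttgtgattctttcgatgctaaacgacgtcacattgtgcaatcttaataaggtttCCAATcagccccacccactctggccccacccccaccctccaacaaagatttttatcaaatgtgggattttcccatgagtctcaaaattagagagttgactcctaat
The capitals in Ahrr are 3 copies of GCGTG, the core bound by the aryl hydrocarbon receptor and by its repressor, and those in Id2 are 3 CCAAT boxes, the first of them on the opposite strand as ATTGG. Homer2 holds 1 GCGTG core on the opposite strand, and Il6 holds 1 CCAAT box.

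Over the full windows of 250 bases before and 50 after the start, 26 of the 34 member genes had an entry, in 17 rising and 15 falling windows. GCGTG was present in 9 of 17 rising and 7 of 15 falling windows, against 32.4% of all 32851 windows; the motif was added after the values of Ahrr had been seen, and the median GC content was 60.0% and 61.3% in the member windows against 52.7% in all. The GATA motif AGATAA was in 2 rising windows (Ccl17 and Clec1b) and 0 falling, against 11.2% of all, and the PU.1-type motif GGAAGTG in 1 rising window (Rab32) and 0 falling, against 11% of all. CCAAT was in 7 rising and 4 falling windows (37.4% of all). The AP-1 motif TGANTCA was in 1 window of each direction, Creb5 and Il6 (7.81% of all), the cAMP response element TGACGTCA in Creb5 (1.79%), the E box CACGTG in 2 rising and 1 falling windows (7.15%), and the interferon-stimulated element core GAAANNGAA in Galnt6 (8.56%). A match is only a run of letters, and its absence from these windows says nothing about binding elsewhere.

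Ahrr led the rising genes, so other genes of its pathway were looked at, also after its values had been seen. Ahr, the receptor, was 1.03 higher in Gata2 KD (limma, adjusted p = 0.0122) and 0.68 higher in Pu.1 KD, where it missed the threshold (adjusted p = 0.105). Its partner Arnt differed by -0.06 and -0.13 and its target Tiparp by 0.10 and -0.33, none of them called. Nqo1, a quinone reductase and another target, went opposite ways: 0.78 lower in Gata2 KD (log2 difference -0.78, adjusted p = 0.0174) and 0.81 higher in Pu.1 KD (adjusted p = 0.0266). The targets Cyp1a1, Cyp1b1 and Aldh3a1 had no tested probe.

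Of 21 gene lists, 3 held a member. The 34 member genes were among 14506 that the rule could take, so short lists would hold few of them in any case. Nothing is read from this count. Hdc is in the mast cell and basophil list, in which 10 of 19 tested genes were called lower in Gata2 KD and 1 higher, and 3 lower and 3 higher in Pu.1 KD (over all 15808 named genes, 486 lower and 640 higher, and 335 lower and 223 higher). The list includes Gata2 itself, the target of the shRNA, which is among the 10 called lower in Gata2 KD. The median change of the list was -0.96 in Gata2 KD and -0.18 in Pu.1 KD, against -0.11 and -0.05 over all named genes. Beside Hdc, whose own changes on this scale were -1.004 and -1.019, the IgE receptor subunit Fcer1a differed by -2.98 and -0.70, the mast cell and basophil protease Prss34 by -1.76 and -0.82, and the stem cell factor receptor Kit by 0.73 and 1.41. Other genes of the list went apart: the proteases Mcpt2 (-0.93 and 1.62) and Cma1 (-1.25 and 1.48) were called lower in Gata2 KD and higher in Pu.1 KD, and the IL-33 receptor Il1rl1 (-3.23 and 0.21) was called in Gata2 KD alone (limma, adjusted p = 0.754 in Pu.1 KD). The summed signal of the list, in multiples of the array's 75th percentile, ran from 269 to 341 in EV, 119 to 160 in Gata2 KD and 231 to 269.7 in Pu.1 KD, and 18 of the 19 genes were well above background on all 9 arrays. Bright probes weigh most in this sum. Srgn, of the highest EV signal in the list, differed by -0.49 and -0.18 and was called in neither comparison. In sorted cells in bulk, fewer cells of a type and less RNA per cell cannot be told apart, and the part of either in the change of Hdc was not tested.

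Clec1b is in the megakaryocyte list, where 5 of 16 tested genes were higher and 3 lower in Gata2 KD and 4 higher and 1 lower in Pu.1 KD. Over all 15808 named genes, 640 were called higher and 486 lower in Gata2 KD, and 223 higher and 335 lower in Pu.1 KD. The summed signal of that list ran from 78.0 to 98.0 in EV, 80.1 to 111 in Gata2 KD and 169 to 193 in Pu.1 KD. All 16 genes were well above background on all 9 arrays. Bright probes weigh most in such a sum, and Pf4, of the highest EV signal in the list, differed by 0.52 and 1.61. Platelet genes of the list did not all go the way of Clec1b: Vwf, the von Willebrand factor, differed by 0.82 and 0.71 and Gp1ba, a subunit of its receptor, by -0.85 and -1.34. Fos is in the immediate early list, in which 1 of 23 genes was higher and 1 lower in Gata2 KD and 0 higher and 3 lower in Pu.1 KD. The counts over all named genes above are the background here too, and nothing is read from so few calls.

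The lists for the interferon response and for RNA interference held no member, which says little for lists this short. Only 31 of the 35 tested interferon genes were well above background on all 9 arrays. Oasl2, Ifit1, Ifit3 and Oas2 were not, so the rule could not take them. In Pu.1 KD these differed by 2.07, 0.02, -0.04 and -0.60, none of them called. Over all 15808 named genes, 640 were called higher and 486 lower in Gata2 KD, and 223 higher and 335 lower in Pu.1 KD. Of 35 tested interferon response genes 19 were called higher in Gata2 KD and 0 lower, against 2 higher and 2 lower in Pu.1 KD. Their summed signal was 124 to 128 in EV, 168 to 198 in Gata2 KD and 154 to 178 in Pu.1 KD. Bright probes again weigh most in this sum. Ifitm3, of the highest EV signal in the list, was called in neither comparison (limma, adjusted p = 0.0538 and 0.151). Among 15 genes of the RNAi and small RNA machinery 0 were called in either comparison by limma. So few of all named genes were called that this count says little. Genes of the neutrophil granule likewise gave no member, 18 of 20 being higher in Gata2 KD and 12 lower in Pu.1 KD.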

How the data were processed

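For each array the authors deposited Agilent Feature Extraction 10.1.1.1 output, whose intensity values were not normalized between arrays, and 1 table of log2 values for the 9 arrays. The processing of the deposited log2 table is not stated in detail. Correlation with the median signal of the same array was 0.9972 to 0.9999 and with its processed signal 0.9587 to 0.9801 (both as log2), and column medians ran from 7.002 to 7.048, so the table holds log2 signal without background subtraction on nearly one distribution. Its values are not absolute, so levels of different probes are not compared on this scale. In the gene lists the processed signals of different probes were summed and ranked, which is a rough description only.

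Members were chosen on this table. Tests used the log2 processed intensity minus the array's 75th percentile, without control spots. There, outlier-flagged spots (between 47 and 96 on an array) were set to missing, whereas the deposited log2 values include them. Spots of a probe were averaged. A probe was tested when at least 50% of its spots were well above background on 3 or more arrays and every group had 2 or more values (36585 of 41174 probes). limma 3.58.1 in R 4.3.3 was fitted on group means over all 9 arrays, two-sided, with p-values adjusted by Benjamini-Hochberg across the tested probes at 0.05, and was tested on simulated data. Precision is limited by 3 arrays per group.

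Accessions were matched without version to a RefSeq gene table (GRCm38.p6), which named 23374 probes. In the gene lists a gene is the tested probe of highest mean signal. Besides the targets, the members and their neighbors at the limit, all 34 member genes are named; the rule for naming asked for the 12 leading genes in each direction, members of a list, the 3 on either side of the limit and the 3 largest differences between the knockdowns in each direction, and F10, Creb5, Pomgnt2 and Tspoap1 lie outside it. The members and lists were chosen with earlier results of these data known. Motifs were sought in RefSeq promoter windows. The alternatives were other scalings and filters, blocks, other limits, and each array or slide left out.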

Additional observations from a re-analysis of the deposited data

Results flagged for a closer look

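For 7 member genes the change at the member probe differed between the knockdowns in a direct limma test (Gata2 KD minus Pu.1 KD, log2 processed signal, adjusted over 36585 probes). The rising genes were Hic1 (1.87), Phyh (1.14), Dtx4 (0.91), Id2 (0.62) and Slc39a4 (0.54), all higher in Gata2 KD. The falling genes were Il6 (-1.03) and Rgs1 (-0.96), both lower in Gata2 KD. Groups of 3 arrays were not searched for outlying samples.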

How the results depend on the processing

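The number of members depends on the scale and the limit. On the log2 processed signal the rule took 34 rising and 32 falling probes (19 and 13 of the members), and after normexp correction with quantile normalization 20 and 9 (19 and 9 of the members). A limit of 0.6 took 56 and 55, and a limit of 1.0 took 7 and 2. Leaving out slide 2 gave 33 rising and leaving out slide 1 gave 26 falling probes. Leaving out single arrays gave 21 to 27 rising and 10 to 28 falling probes, the highest without EV replicate 1. With flagged spots missing, an alternative added after seeing the data, there were 22 and 15. Of the other alternatives to the rule, all stayed within 1.5 times the counts reported.

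Calls of the 36 probes by limma moved as follows. Against EV, 28 were called in Gata2 KD and 26 in Pu.1 KD. Median scaling called 18 and 8, and a fit of only the groups compared called 21 and 5. Single arrays left out gave 20 to 27 in Gata2 KD and 6 to 21 in Pu.1 KD (8 without EV replicate 2, 16 without EV replicate 1, 15 without Gata2 KD replicate 2, and 8, 7 and 6 without Pu.1 KD replicates 1, 2 and 3). Between the knockdowns, 7 were called, 3 with median scaling and 3 to 6 with single arrays left out, 4 of these without Gata2 KD replicate 3 or Pu.1 KD replicate 1 and 3 without Gata2 KD replicate 2 or Pu.1 KD replicates 2 or 3. Hic1, Phyh and Dtx4 passed under all 20 alternatives; adjusted p reached 0.237 for Id2, 0.214 for Slc39a4, 0.0718 for Il6 and 0.118 for Rgs1. None of the 36 probes changed direction against EV under these 20 alternatives, nor did any of the 7 between the knockdowns. The other 29 were not run in that comparison. The members were chosen for large differences from EV and the 7 for passing the direct test, so nothing is read from the lack of reversals. The causes were not tested.

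Same-numbered arrays lay mostly on different slides and shared only a number, their deviations correlating between -0.55 and 0.65. With the replicate block the calls were 21 in Gata2 KD, 4 in Pu.1 KD and 3 between the knockdowns, and setting each knockdown array against the EV array of its number, also a replicate block, gave 22 rising and 16 falling members. Only probes above background on every array could be members, so genes silent in a group lie outside the rule.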

Other observations

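Another 11667 probes were well above background on all 9 arrays but carried no symbol. The same limits took 4 of them as rising (0.0343%) and 17 as falling (0.146%). These are counts of probes, not of genes. The falling probes A_52_P686392 and A_52_P151887 are assigned to the same transcript. Others moved nearly alike, such as A_52_P469009 (-1.87 and -0.98) and A_51_P128248 (-1.93 and -0.90), and whether they read separate transcripts was not tested. The leading rising probe, A_51_P333622, was 1.13 higher in Gata2 KD and 1.78 higher in Pu.1 KD (deposited log2), and the next, A_51_P123630, 1.79 and 0.92 higher. The leading falling probe, A_51_P110421, read 10.15, 10.20 and 9.96 in EV, 7.46, 7.54 and 7.52 in Gata2 KD and 8.87, 9.09 and 8.71 in Pu.1 KD, differences of -2.60 and -1.21. A_51_P286935 differed by -1.87 and -1.08. These differences also chose the probes and carry no test.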
